A study of Homo sapiens with 4 samples.

Results

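The enzymes that build cholesterol, the SREBP transcription factors that switch many of those enzymes on, and a set of their known or close target genes were followed in 4 RNA-seq libraries of slow-cycling and unselected breast cancer cells. The set holds 34 genes of the 58735 in the count table. They were chosen by gene name for their function, with earlier results of these data known. By role, 7 genes belong to the mevalonate arm, 11 to the sterol arm, 5 to SREBP control, 4 to sterol uptake and transport and 7 to fatty-acid synthesis. Of the 34, 33 passed the filter on low counts, which asked for 1 CPM (a count scaled to the size of its library) averaged over the libraries. NPC1L1, the intestinal sterol importer, did not, with 6 reads in Bulk against 5 (Claret), 16 (eGFP) and 5 (Violet).

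The libraries were made from MDA-MB-231, a human triple-negative breast cancer cell line with mesenchymal features, transduced with TetOn-H2BeGFP, a histone H2B fused to eGFP whose expression is induced by doxycycline. All 4 groups share this reporter, doxycycline at 5 µg/ml for 3 days, labelling with the Claret and Violet dyes and a chase of 12 days, in which dividing cells dilute each label. The top 1% of cells for Claret, for eGFP and for Violet were sorted as 3 slow-cycling populations, and the Bulk sort used no such gate. Whether the transduced cells were a clone or a pool is not given in the labels. Each group is 1 library, and the labels name no separate cultures. Every test below therefore compares the reads of 2 libraries, not 2 conditions, and every interval covers counting error only.

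Groups were taken from the titles, which also name the table's columns. In all 4 libraries the treatment field names another sort than the title does. It gives Claret for the library titled Bulk, eGFP for the one titled Claret, Violet for the one titled H2B-eGFP and the un-gated sort for the one titled Violet. The library titled Bulk stood apart from the other 3 in the 10 proliferation genes listed (MKI67, TOP2A, MCM2 to MCM6, CCNB1, CDK1 and PLK1). These summed to 2938 CPM there, against 639, 527 and 636 for Claret, eGFP and Violet. Library totals ran from 15508179 to 16976909 reads. Of the markers of the cell line, VIM had 12507 to 18488 reads, AXL 9826 to 12954, CD44 5303 to 6357 and CAV1 3742 to 7188, while PGR had 0 reads in every library, ESR1 3 to 7, CDH1 0 to 3 and EPCAM 28 to 61.

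Cells sense cholesterol in the membrane of the endoplasmic reticulum. When it is plentiful, SCAP and the SREBP precursors are held there by INSIG proteins. When it falls, SCAP carries SREBP to the Golgi, where site-1 and site-2 proteases cut it and release a fragment that enters the nucleus. SREBP2, from SREBF2, is best known for turning on cholesterol synthesis and uptake, and SREBP1, from SREBF1, for turning on fatty-acid synthesis. Both bind a short promoter element, usually together with the factors NF-Y and SP1. Messenger RNA levels show neither the cutting of SREBP nor the flow through the pathway.

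Promoter stretches of 6 genes on the plus strand are shown as examples. SREBF2, HSD17B7 and FDPS carry an SREBP-type element, and MSMO1, INSIG1 and TMEM97 were among the genes with larger ratios to Bulk. Not every such gene is shown: FADS2 also carries an element, and TM7SF2 and NPC1 had larger ratios than INSIG1. Each is the part of the 250 bases before the RefSeq start that lies ahead of the gene's first annotated exon. Sequences are from RefSeq on GRCh38.p14, plus strand, 5′ to 3′. Capitals mark exact matches, on either strand, to TCACNCCAC, the core of the sterol regulatory element, to TCACNCNAC, a looser form that includes the first, to CCAAT, the NF-Y box, and to GGGCGG, the GC box bound by SP1. SREBF2 is at chr22:41832855-41833078, HSD17B7 at chr1:162790452-162790701, FDPS at chr1:155308616-155308747, MSMO1 at chr4:165327419-165327622, INSIG1 at chr7:155297628-155297775 and TMEM97 at chr17:28318950-28319094.
SREBF2: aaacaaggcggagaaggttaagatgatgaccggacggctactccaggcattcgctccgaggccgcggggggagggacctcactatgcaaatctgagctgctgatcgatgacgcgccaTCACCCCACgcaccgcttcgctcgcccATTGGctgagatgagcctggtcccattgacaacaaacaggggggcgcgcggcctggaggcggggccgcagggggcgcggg
HSD17B7: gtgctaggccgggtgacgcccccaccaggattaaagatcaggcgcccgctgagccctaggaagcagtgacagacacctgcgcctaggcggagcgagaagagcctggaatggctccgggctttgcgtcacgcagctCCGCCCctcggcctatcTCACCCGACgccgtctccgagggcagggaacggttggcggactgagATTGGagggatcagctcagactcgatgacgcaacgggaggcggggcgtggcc
FDPS: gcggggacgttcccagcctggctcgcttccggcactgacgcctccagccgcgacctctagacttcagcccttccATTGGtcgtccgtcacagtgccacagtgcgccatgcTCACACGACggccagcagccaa
MSMO1: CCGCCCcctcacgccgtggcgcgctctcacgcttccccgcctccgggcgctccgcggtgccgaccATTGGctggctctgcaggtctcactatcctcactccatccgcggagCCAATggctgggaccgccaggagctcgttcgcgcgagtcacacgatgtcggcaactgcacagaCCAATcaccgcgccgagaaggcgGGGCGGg
INSIG1: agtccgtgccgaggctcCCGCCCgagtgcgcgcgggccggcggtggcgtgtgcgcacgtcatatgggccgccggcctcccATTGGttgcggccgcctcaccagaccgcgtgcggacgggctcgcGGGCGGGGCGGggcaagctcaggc
TMEM97: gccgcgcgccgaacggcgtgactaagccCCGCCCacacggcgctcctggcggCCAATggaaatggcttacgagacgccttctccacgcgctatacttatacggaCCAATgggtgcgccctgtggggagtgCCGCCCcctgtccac

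RefSeq promoters were matched for 30 of the 34 genes, all but ACAT2, FDFT1, SQLE and FASN. Over the 250 bases before each start, the sterol element core TCACNCCAC was found in 1 of the 30, SREBF2 itself, or 3.33%, against 1.2% of 10352 tested genes with a promoter and 0.883% of all 35116 windows. The looser form was found in 4 genes (FDPS, HSD17B7, SREBF2 and FADS2), or 13.3%, against 2.59% of tested genes and 2.02% of windows. The NF-Y box was common: CCAAT was present in 21 of the 30, or 70.0%, against 41.3% of tested genes and 32.0% of windows. GGGCGG was present in 28, or 93.3%, against 74.5% and 42.6%, and the E-box CACGTG in 3 (SC5D, INSIG1 and SCAP), or 10.0%, against 11.1% and 6.34%. These are matches of letters in one window and no measure of binding.

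Against Bulk the 34 genes did not move as a block: a few sterol genes were well above Bulk, a few well below, and most within 1.5-fold. MSMO1 was the only one at least 2-fold higher in all 3 slow-cycling libraries, and ACAT2 and TMEM97 were the only ones at least 2-fold lower in all 3. A gene is called here when its reads differed at an adjusted p under 0.05 (two-sided exact binomial test, Benjamini-Hochberg over 14585 genes) and its ratio passed the stated fold. Over all genes tested, 8.36% were called 2-fold higher in all 3 libraries and 4.92% 2-fold lower. At 1.5-fold, 5 members were higher in all 3 (MSMO1, TM7SF2, NPC1, INSIG1 and STARD4) and 3 were lower in all 3 (TMEM97, ACAT2 and EBP), against 15.3% and 12.8% of all genes. As these are bulk RNA samples, fewer cells expressing a gene and less of its RNA per cell cannot be told apart.

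By library, 2 of the 33 members tested were called 2-fold higher in Claret and 2 lower, where 11.2% and 6.67% of all genes were called. In eGFP the counts were again 2 and 2, against 11.9% and 7.6% of all genes. In Violet 1 was higher and 3 lower, against 11.3% and 7.01%. At 1.5-fold, Claret had 5 members higher and 4 lower, against 19.7% and 16.5% of all genes. Violet had 6 higher and 3 lower, against 20.3% and 16.8%. The eGFP library had the most members above, 10 (30.3%) against 20.4% of all genes, and 3 below (9.09%) against 17.7%. Some 1.5-fold calls sat near the threshold. On the log2(FPKM + 1) scale, STARD4 was at 0.55 in Claret and 0.55 in Violet, SQLE at 0.49, HSD17B7 at 0.51 and SREBF2 at 0.57 in eGFP, and SCD at 0.56 in Violet, all short of 1.5-fold. ACLY in Claret was at -0.57 with library totals, and SREBF2 in eGFP at 0.53 with a GC correction, also short of it. Other genes crossed 1.5-fold only under an alternative. With the GC correction, HMGCS1 was at 0.62, HSD17B7 at 0.59 and LSS at -0.63 in Claret, LSS at -0.62 in eGFP and ACLY at -0.61 in Violet. ACLY in Violet was also at -0.60 on the log2(FPKM + 1) scale. The median log2 ratio of the members was 0.00, 0.14 and 0.05 for Claret, eGFP and Violet, beside -0.01, -0.01 and 0.00 over all genes. Over the 10112 genes with a mean of at least 10 CPM, a level every tested member reached, it was -0.08, -0.08 and -0.09. The SD of log2 ratios was 0.63 to 0.66 for the members against 0.86 to 0.90 for all genes. All genes include many with few reads, down to a mean of 1 CPM, and the spread was not compared at a matched level.

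**Figure D1:**
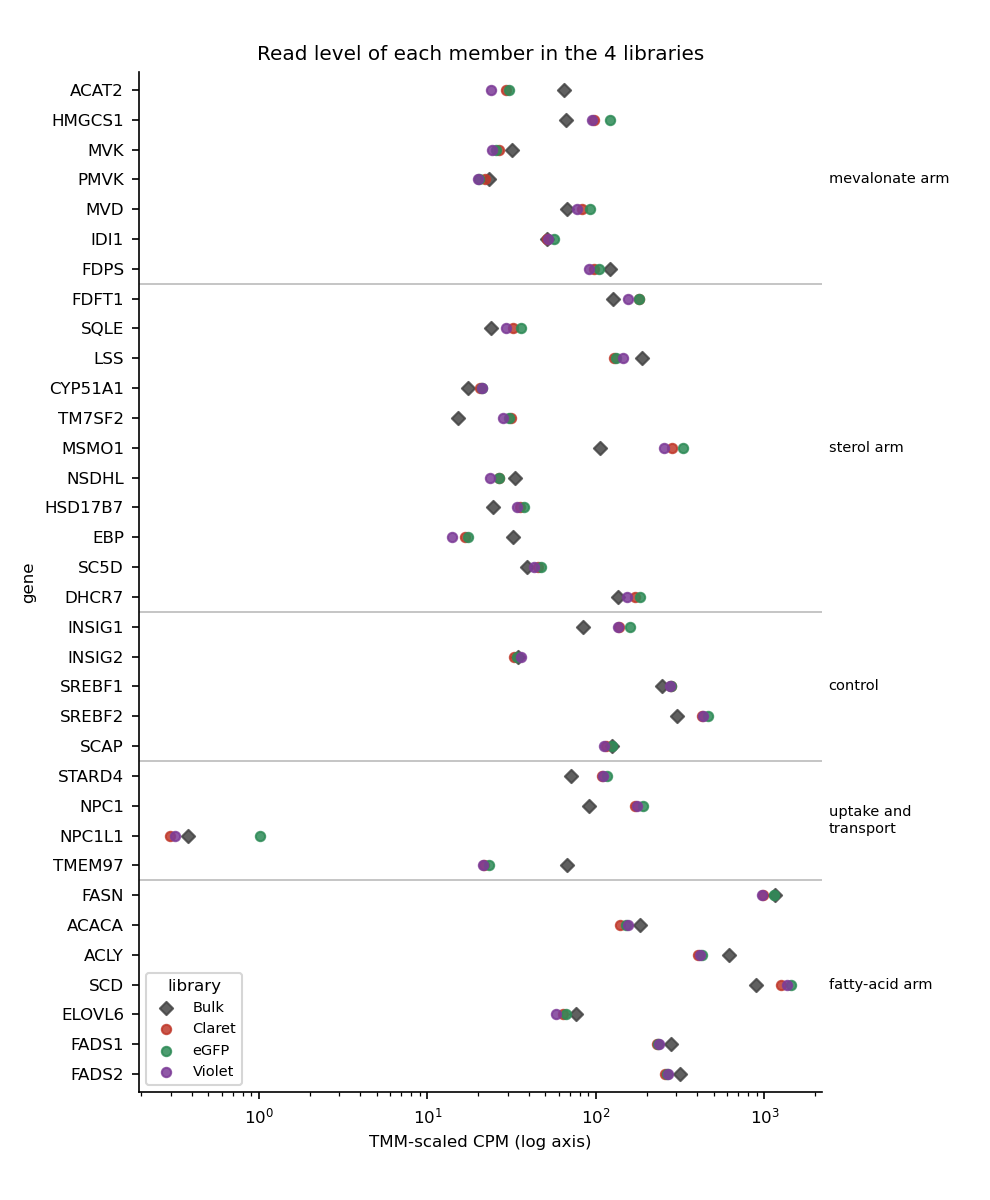
Expression of the 34 genes (CPM, log axis) in the 4 libraries, 1 point per library, grouped by role. Libraries of 1 gene lie close together except for genes such as MSMO1, TMEM97, ACAT2 and EBP, where Bulk stands apart from the other 3.

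The first steps join acetyl units into mevalonate and then into isoprenoids, and this arm was split. Below, 4 values in a row are for Bulk, Claret, eGFP and Violet in that order, and 3 are for the slow-cycling libraries. ACAT2 (ENSG00000120437, chr6:159760328-159779055), the cytosolic thiolase that joins 2 acetyl-CoA, had 64.3 CPM in Bulk against 29.4 (Claret), 30.4 (eGFP) and 23.8 (Violet). All 3 slow-cycling libraries were well under Bulk. The log2 ratios were -1.13 (95% interval -1.29 to -0.97), -1.08 (-1.24 to -0.92) and -1.43 (-1.61 to -1.26) for Claret, eGFP and Violet. ACAT2 reads are uncertain, since genes on the opposite strand cover 52.3% of its exon bases, 68.4% of its 31-base words occur in other annotated genes, and the use of strand in counting is not given in the sources used here.

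HMGCS1 (chr5:43289395-43313512), which makes HMG-CoA in the next step, went the other way. It had 66.6 CPM in Bulk against 97.9 (Claret), 120.3 (eGFP) and 95.2 (Violet). Its log2 ratios were 0.55 (0.44 to 0.67), 0.85 (0.74 to 0.96) and 0.51 (0.40 to 0.63), of which that of eGFP passed 1.5-fold and, with the GC correction, that of Claret too. Of its 31-base words, 19.4% also occur in other annotated genes.

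The 2 kinases of this arm and the enzymes after them differed from Bulk by less than 1.5-fold. MVK, the first kinase, had 31.9 CPM in Bulk and 24.2 to 26.5 in the slow-cycling libraries, with log2 ratios of -0.27 to -0.40. PMVK, the second, had 23.0 and 20 to 22.1 CPM, and all 3 of its intervals spanned 0. MVD, which makes isopentenyl diphosphate, had 67.2 CPM in Bulk against 82.7 (Claret), 92.5 (eGFP) and 77.6 (Violet), so the decarboxylase was above Bulk in each while the kinase MVK was below it in each. IDI1, the isomerase, was nearly level at 51.3, 51.4, 56.7 and 51.9 CPM (adjusted p = 1, 0.057 and 0.88). FDPS, which makes farnesyl diphosphate, had 121 CPM in Bulk and 91.1 to 103.7 elsewhere, with log2 ratios of -0.31, -0.23 and -0.41. The median of the 7 genes was -0.06, -0.19 and -0.20 for Claret, eGFP and Violet on the log2 scale.

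From squalene onward the enzymes belong to sterol synthesis alone, and 8 of these 11 genes were above Bulk in all 3 libraries, although 6 of the 8 met an adjusted p under 0.05 in each. The arm's median log2 ratio was 0.34, 0.43 and 0.27 for Claret, eGFP and Violet. FDFT1, squalene synthase at the branch point, had 127 CPM in Bulk against 180.4 (Claret), 179 (eGFP) and 155 (Violet). SQLE, which adds the first oxygen and is a slow step of the pathway, had 23.7, 32.3, 35.7 and 29.3 CPM. For both, Violet was the closest of the 3 to Bulk. SQLE passed 1.5-fold in eGFP only (log2 ratio 0.59, 0.40 to 0.79), and FDFT1 in none.

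LSS, which closes the ring to form lanosterol, was under Bulk, with 188 CPM there against 128, 131 and 145 for Claret, eGFP and Violet. The log2 ratios of -0.55, -0.52 and -0.37 fell short of 1.5-fold, though Claret and eGFP passed it with the GC correction. CYP51A1, lanosterol demethylase, had 17.3 CPM in Bulk and 20.4 to 21.0 in the others (adjusted p = 0.068, 0.031 and 0.033). Annotated genes on the same strand cover 79.4% of CYP51A1's exon bases, so its count is uncertain.

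The steps that follow remove methyl groups and move double bonds, and they held the highest ratio of the set. MSMO1 (ENSG00000052802, chr4:165327623-165343160), the methylsterol oxidase, had 106 CPM in Bulk against 284 (Claret), 329 (eGFP) and 252 (Violet), from 1670, 4814, 5227 and 3979 reads. Bulk lay far under the others, and eGFP was the highest. The ratios to Bulk were 2.68-fold, 3.10-fold and 2.37-fold, or 1.42 (1.34 to 1.5), 1.63 (1.56 to 1.72) and 1.25 (1.17 to 1.33) on the log2 scale. NSDHL, which acts beside MSMO1 in removing the same methyl groups, was on the other side of Bulk, with 33.1 CPM there and 26.7, 26.6 and 23.5 for Claret, eGFP and Violet.

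HSD17B7, the ketosteroid reductase of the same reaction series, had 24.4 CPM in Bulk against 35.6 (Claret), 37.6 (eGFP) and 34 (Violet). It passed 1.5-fold in eGFP (log2 ratio 0.62, 0.43 to 0.81) and, with the GC correction alone, in Claret, and 27.1% of its 31-base words occur in other genes, among them the pseudogene HSD17B7P2. TM7SF2, a sterol reductase of the endoplasmic reticulum, had 15.2 CPM in Bulk against 31.5 (Claret), 30.4 (eGFP) and 28.1 (Violet). Its log2 ratios were 1.04 (0.83 to 1.27), 0.99 (0.77 to 1.23) and 0.88 (0.65 to 1.12), so the 2-fold call was met in Claret alone with the other 2 close below it.

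EBP (chrX:48521158-48528716), the isomerase that shifts a ring double bond, was the sterol gene furthest under Bulk. It had 32.2 CPM in Bulk against 16.7 (Claret), 17.5 (eGFP) and 13.9 (Violet). The log2 ratios were -0.94 (-1.16 to -0.73), -0.88 (-1.10 to -0.67) and -1.2 (-1.44 to -0.98), with 2-fold passed in Violet alone. SC5D, the desaturase after EBP, had 39.2, 45.1, 47.4 and 42.7 CPM, and its interval in Violet spanned 0. DHCR7, the last reductase, had 135 CPM in Bulk against 171 (Claret), 181 (eGFP) and 152 (Violet). Consecutive enzymes thus lay on opposite sides of Bulk at several steps. Among them were ACAT2 and HMGCS1, FDPS and FDFT1, SQLE and LSS, MSMO1 and NSDHL, and EBP and the enzymes after it. The ACAT2 count is uncertain, as given above.

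**Figure D2:**
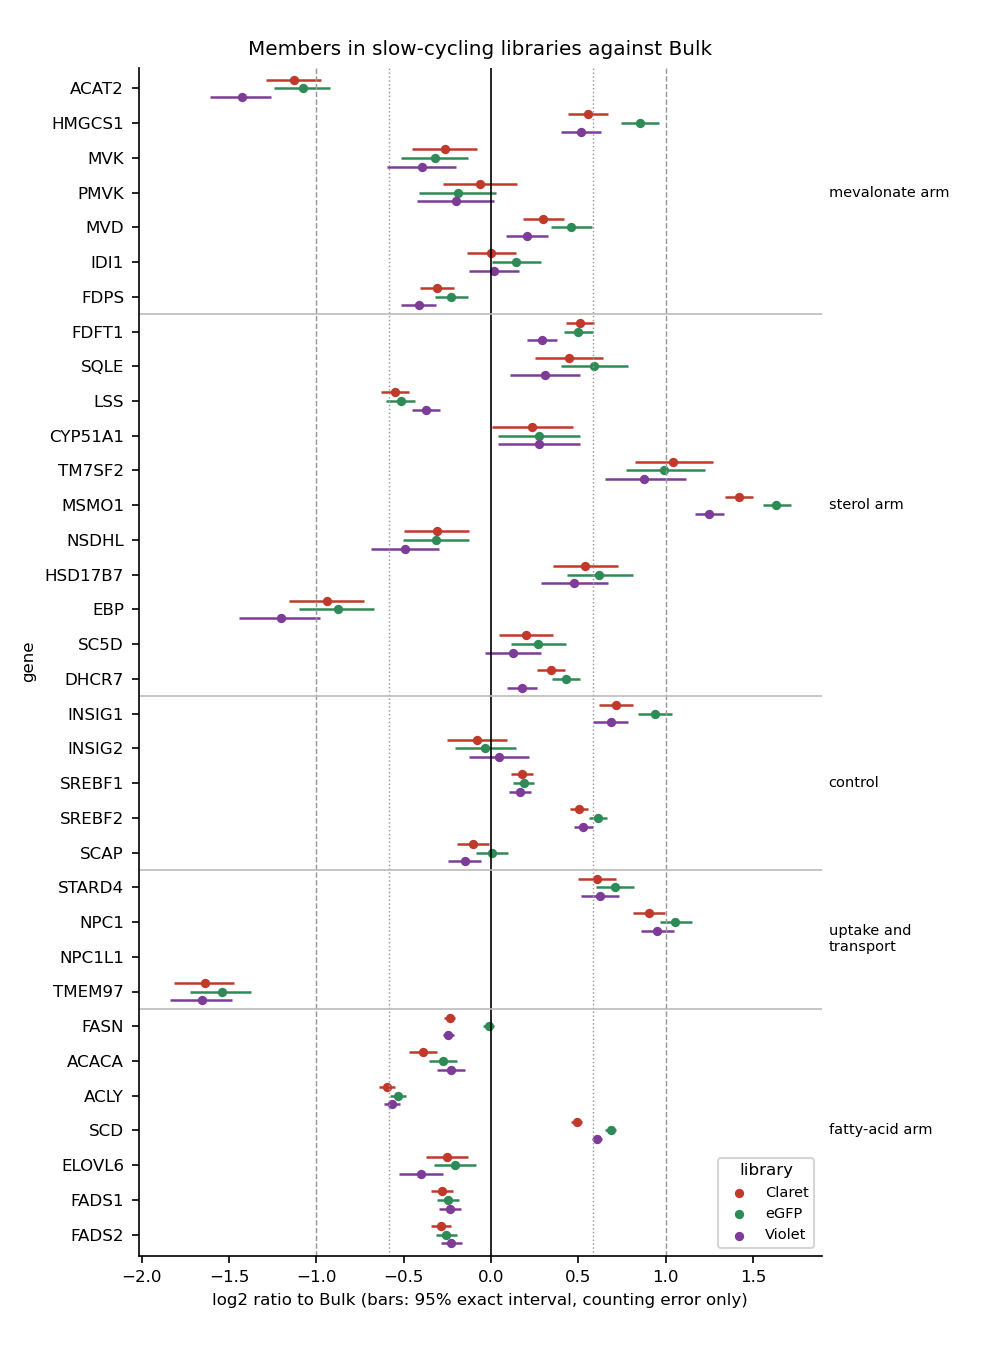
Log2 ratio of each gene to Bulk for Claret, eGFP and Violet, grouped by role, with 95% intervals for counting error. The 3 libraries lie together for nearly every gene, from MSMO1 (1.25 to 1.63) down to TMEM97 (-1.54 to -1.65), and NPC1L1 is blank because it was not tested.

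Among the control genes, the INSIG pair differed. INSIG1 (ENSG00000186480, chr7:155297776-155310235), itself a known SREBP target, had 83.6 CPM in Bulk against 137 (Claret), 160.1 (eGFP) and 134 (Violet). Each slow-cycling library was at least 1.5-fold above Bulk, by 0.71 (0.62 to 0.81), 0.94 (0.84 to 1.03) and 0.68 (0.59 to 0.79) on the log2 scale. INSIG2, its relative, had 34.7, 32.8, 33.9 and 35.8 CPM, with all 3 intervals spanning 0. Per length, in FPKM, INSIG1 stood at 2.61 times INSIG2 in Bulk, 4.53 times in Claret, 5.11 times in eGFP and 4.07 times in Violet.

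SREBF2 (chr22:41833079-41907308) had 301 CPM in Bulk against 427 (Claret), 461 (eGFP) and 434 (Violet). Its log2 ratios were 0.50 (0.45 to 0.56), 0.61 (0.56 to 0.67) and 0.53 (0.47 to 0.58), past 1.5-fold in eGFP only. SREBF1 differed less, with 246 CPM in Bulk and 276 to 280 in the others, or 0.16 to 0.19 on the log2 scale. The FPKM of SREBF2 over that of SREBF1 was 1.30 in Bulk against 1.63 (Claret), 1.75 (eGFP) and 1.67 (Violet). SCAP, the escort protein, was close to Bulk at 124, 115, 124 and 111 CPM.

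Sterol handling outside synthesis gave the lowest ratio of the set. TMEM97 (ENSG00000109084, chr17:28319095-28328685), the sigma-2 receptor and a known binding partner of NPC1, had 67.4 CPM in Bulk against 21.6 (Claret), 23.1 (eGFP) and 21.3 (Violet). It was 3.11-fold, 2.91-fold and 3.15-fold lower than in Bulk, with log2 ratios of -1.64 (-1.82 to -1.47), -1.54 (-1.72 to -1.37) and -1.65 (-1.84 to -1.48). IFT20, on the opposite strand, covers 11.9% of its exon bases.

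NPC1 (chr18:23506184-23586898), which exports cholesterol from lysosomes, was on the other side. It had 91.1 CPM in Bulk against 170.5 (Claret), 189 (eGFP) and 176 (Violet), or 1.87-fold, 2.08-fold and 1.94-fold as much as in Bulk. STARD4, a soluble sterol carrier, had 71.5 CPM in Bulk against 109 (Claret), 117 (eGFP) and 110.1 (Violet), with log2 ratios of 0.60 (0.50 to 0.71), 0.71 (0.60 to 0.82) and 0.62 (0.51 to 0.73). For both genes all 3 slow-cycling libraries lay near each other and above Bulk.

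In fatty-acid synthesis 6 of 7 genes had ratios below Bulk in all 3 libraries, though FASN in eGFP changed side with the scaling, and the arm's median log2 ratio was -0.28, -0.25 and -0.24 for Claret, eGFP and Violet. ACLY, which makes cytosolic acetyl-CoA, had 614 CPM in Bulk against 406 (Claret), 424 (eGFP) and 414 (Violet), and its log2 ratio of -0.60 (-0.64 to -0.55) in Claret was the only one in the arm to pass 1.5-fold downward, joined by its Violet ratio with the GC correction or log2(FPKM + 1). ACACA, which makes malonyl-CoA, had 181 CPM in Bulk and 139 to 155 in the others. FASN, the fatty-acid synthase, had 1148 CPM in Bulk against 975 (Claret), 1137 (eGFP) and 969 (Violet). Its eGFP value lay beside Bulk (log2 ratio -0.01, adjusted p = 0.41, and 0.01 when scaled by library totals), while Claret and Violet were lower by reads but short of 1.5-fold.

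SCD, the stearoyl-CoA desaturase, was the exception, above Bulk in all 3. It had 890.4 CPM in Bulk against 1252 (Claret), 1431 (eGFP) and 1357 (Violet), with log2 ratios of 0.49 (0.46 to 0.52), 0.68 (0.65 to 0.71) and 0.61 (0.58 to 0.64). It passed 1.5-fold in eGFP and Violet, and 13.1% of its 31-base words occur in other genes, among them the pseudogene SCDP1. ELOVL6, an elongase, had 76.1 CPM in Bulk and 57.6 to 66.0 in the others. FADS1 and FADS2, neighbouring desaturases of polyunsaturated fatty acids, moved in step, with log2 ratios of -0.23 to -0.29. In FPKM, FADS2 stood at 1.05, 1.04, 1.04 and 1.05 times FADS1 in Bulk, Claret, eGFP and Violet.

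Counting any size of difference at an adjusted p under 0.05, 14 members were above Bulk in all 3 libraries and 12 below in all 3, against 26.8% and 29.8% of all genes. The 14 were HMGCS1, MVD, FDFT1, SQLE, TM7SF2, MSMO1, HSD17B7, DHCR7, INSIG1, SREBF1, SREBF2, STARD4, NPC1 and SCD. The 12 were ACAT2, MVK, FDPS, LSS, NSDHL, EBP, TMEM97, ACACA, ACLY, ELOVL6, FADS1 and FADS2. The 3 comparisons share the Bulk library, so a high or low count there enters all 3. All 10 proliferation genes were called 2-fold lower in each slow-cycling library (list medians -2.24, -2.56 and -2.22 on the log2 scale), and the part of proliferation in these ratios was not tested.

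By level per length, SCD was the most abundant of the set, with 168 FPKM in Bulk against 233 (Claret), 265 (eGFP) and 249 (Violet). FASN followed with 124, 104, 121 and 102 FPKM and ACLY with 119, 77.8, 80.8 and 78.2. MSMO1 had 37.2, 98.1, 113 and 85.7 FPKM, so for Claret, eGFP and Violet it stood above ACLY, and in Bulk well under it. Summed FPKM of the sterol arm was 179 in Bulk against 249.7 (Claret), 268 (eGFP) and 223 (Violet). The fatty-acid arm summed to 493, 480.0, 533 and 495 FPKM, and the mevalonate arm to 112, 105, 112 and 96.5. The sterol sum exceeded Bulk in each library. Without MSMO1 it was 142 FPKM in Bulk against 152 (Claret), 155 (eGFP) and 137 (Violet). In FPKM, the fatty-acid sum lay on both sides of Bulk, and the mevalonate sum was level with it in eGFP and lower in Claret and Violet. FPKM was used as deposited, without the library scaling applied to CPM. Small gaps between libraries in these sums, such as that of Violet without MSMO1, are therefore not read as differences.

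Between the slow-cycling libraries no member passed 1.5-fold at an adjusted p under 0.05 (exact binomial test). Over all genes, 0.727% were called 1.5-fold higher and 0.905% lower in Claret over eGFP, 0.59% and 1.23% in Claret over Violet, and 0.713% and 1.48% in eGFP over Violet. Smaller differences ran mostly one way, with eGFP the highest. For Claret over eGFP, 28 of 33 members had a ratio below 0 (median -0.08), where 7223 of 14585 genes did (median 0.00). For eGFP over Violet, 28 of 33 were above 0 (median 0.13), against 7483 of 14585 (median 0.01). Claret and Violet lay closer, with 21 of 33 above 0 (median 0.04), against 7579 of 14585 (median 0.01). Many of these small ratios were within counting error. For Claret over eGFP, 14 intervals lay below 0, 0 above it, and 19 spanned it. For eGFP over Violet, 16 lay above 0, 1 below it, and 16 spanned it. The counts of these 2 pairs share the eGFP library.

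The widest gap was MSMO1 in eGFP over Violet, at 0.39 (0.33 to 0.45) on the log2 scale. ACAT2 followed at 0.35 and HMGCS1 at 0.34 in the same pair. HMGCS1 also had the lowest ratio in Claret over eGFP, at -0.30, with INSIG1 and FASN at -0.22. LSS was the clearest exception, highest in Violet of the 3, at -0.15 in eGFP over Violet. The proliferation genes ran the other way, with medians of 0.28 in Claret over eGFP and -0.26 in eGFP over Violet. The part of proliferation in the small eGFP difference was not tested.

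**Figure D3:**
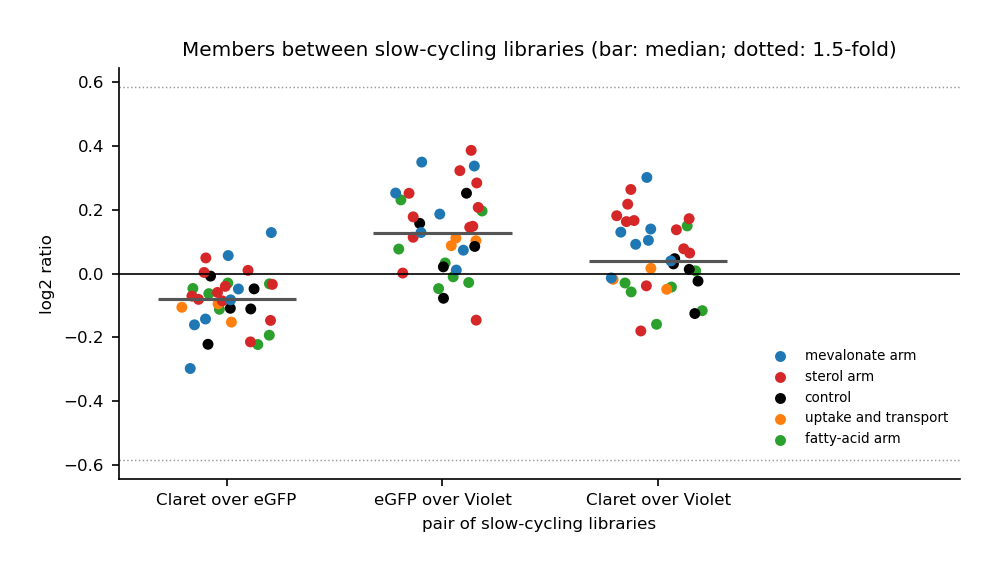
Log2 ratio of the 33 tested genes between pairs of slow-cycling libraries, 1 point per gene coloured by role, with the median as a bar and dotted lines at 1.5-fold. All points lie inside the dotted lines, with medians of -0.08, 0.13 and 0.04.

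The promoter letters shown above were set beside the ratios as a description. The 20 tested genes with CCAAT in the window had median log2 ratios to Bulk of 0.25, 0.35 and 0.15 for Claret, eGFP and Violet, and the 9 without had -0.08, -0.03 and -0.15. Genes with the box lay on both sides of Bulk, 10 above and 8 below in all 3 libraries at an adjusted p under 0.05. Of the 9 without it, 2 were above and 3 below, and of all genes 26.8% and 29.8%. MSMO1 and TMEM97, the highest and the lowest of the set, both carry CCAAT and GGGCGG. The 4 genes with the looser sterol element also divided, with HSD17B7 and SREBF2 above Bulk and FDPS and FADS2 below.

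Genes around the pathway were described by lists. Of 8 genes of SREBP processing and sterol-regulated degradation, none passed 1.5-fold upward in these 3 comparisons, and 3 (37.5%) passed it downward in each. Over all genes, 19.7%, 20.4% and 20.3% were higher and 16.5%, 17.7% and 16.8% lower for Claret, eGFP and Violet. RNF145 and ERLIN1, the latter named after its values were seen, were among those lower in each library. MBTPS1, the site-1 protease, was the highest, at 201 CPM in Bulk against 254 (Claret), 239 (eGFP) and 276 (Violet). RNF145, a ubiquitin ligase that responds to sterols, was the lowest, at 241, 125, 129.8 and 147 CPM. Its log2 ratios were -0.94, -0.89 and -0.72. The list's medians were -0.04, -0.09 and -0.06.

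Of 10 genes that support isoprenoid and sterol synthesis, GGPS1 passed 1.5-fold upward and PDSS1 downward in each library. PDSS1, which makes the isoprenoid tail of coenzyme Q, was 2-fold lower in all 3, with 17.9 CPM in Bulk against 6.90 (Claret), 4.60 (eGFP) and 5.06 (Violet). Its log2 ratios were -1.36 (-1.70 to -1.06), -1.93 (-2.35 to -1.58) and -1.80 (-2.20 to -1.46). GGPS1, which makes geranylgeranyl diphosphate, was named after its values were seen. The list's medians were -0.18, -0.25 and -0.20.

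Of 17 genes of sterol storage, lysosomal release and efflux, 15 were tested. At 1.5-fold, 3, 3 and 4 were higher for Claret, eGFP and Violet, while 2, 4 and 4 were lower. These are 20%, 20% and 26.7% of the list higher and 13.3%, 26.7% and 26.7% lower, near the 19.7%, 20.4% and 20.3% of all genes higher and the 16.5%, 17.7% and 16.8% lower. ABCG1 (chr21:42199689-42297244), a sterol exporter known as a target of the liver X receptors, was 2-fold higher in all 3. It had 6.98 CPM in Bulk against 30.4 (Claret), 36.1 (eGFP) and 37.0 (Violet), with log2 ratios of 2.10 (1.82 to 2.43), 2.35 (2.07 to 2.68) and 2.38 (2.11 to 2.71). NR1H3, one of those receptors, had 11.6, 22.3, 23.3 and 20.4 CPM, and SOAT1, which esterifies cholesterol for storage, 125, 79.4, 82.6 and 82.7 CPM. Both were named after their values were seen. The list's medians were 0.30, 0.31 and 0.28.

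Of 20 further genes of fatty-acid and glycerolipid synthesis, 6, 6 and 7 were 1.5-fold higher for Claret, eGFP and Violet, and none was 1.5-fold lower in these 3 comparisons. Over all genes 19.7%, 20.4% and 20.3% were higher and 16.5%, 17.7% and 16.8% lower. ACSS2 (chr20:34872146-34927962), which makes acetyl-CoA from acetate and is a known SREBP target, was the only one 2-fold higher in all 3. It had 41.3 CPM in Bulk against 98.8 (Claret), 109 (eGFP) and 95.2 (Violet), with log2 ratios of 1.26 (1.13 to 1.39), 1.39 (1.27 to 1.53) and 1.2 (1.07 to 1.34). ACLY, the other cytosolic source of acetyl-CoA, was under Bulk in the same libraries. The list's medians were 0.09, 0.09 and 0.04.

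**Figure D4:**
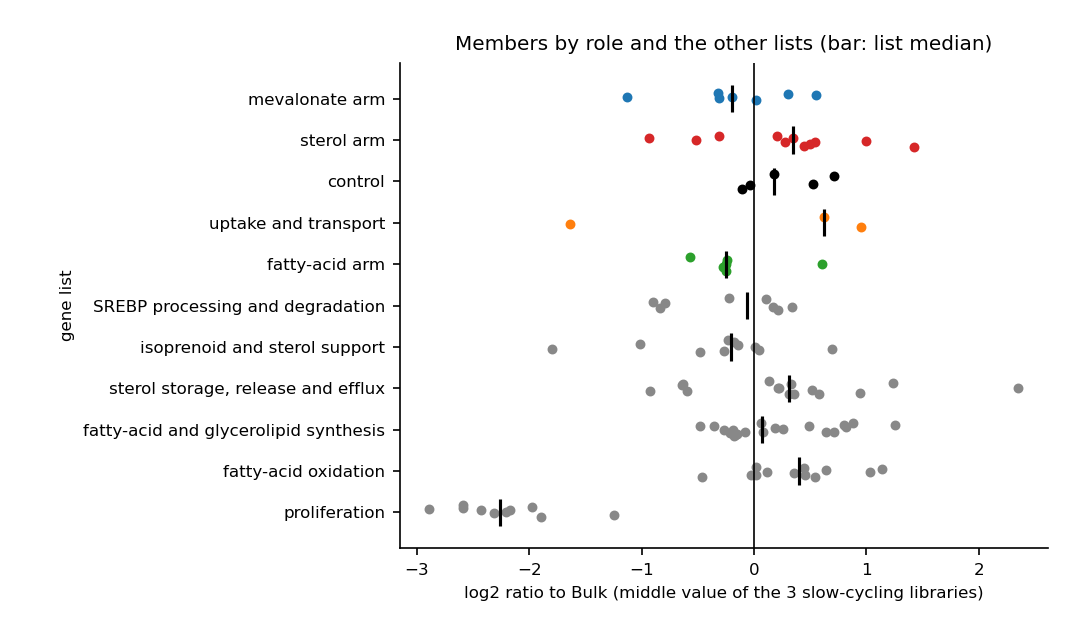
Log2 ratio to Bulk of each tested gene, as the middle value of the 3 slow-cycling libraries, for the members by role (colours) and for the surrounding lists (grey), with the list median as a bar. The roles and lists overlap around 0 while the 10 proliferation genes all lie below -1.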

How the data were processed

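RNA-seq read counts from 4 MDA-MB-231 libraries were analysed. The deposited table holds raw read counts per gene, not normalized, per the file headers. The authors also deposited FPKM values, used here for levels between genes and for 1 alternative. Reads were aligned with HISAT2 2.0.5 and counted with featureCounts 1.5.0-p3, per the submitters' processing notes. The annotation used, strand setting and handling of multi-mapping reads are not given in the sources used here. Gene starts and ends equal GENCODE 29 (GRCh38) for 58724 of 58735 genes, including all 34 members, and coordinates are 1-based. Unmapped value columns numbered 0.

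Library sizes were scaled by TMM (edgeR 4.0.16, R 4.3.3). The quasi-likelihood test of edgeR cannot be run on 1 library per group, so reads of 2 libraries were compared by a two-sided exact conditional binomial test (scipy 1.17.1, Python 3.11.15), adjusted by Benjamini-Hochberg over the 14585 genes with a mean of at least 1 CPM. Calls needed an adjusted p under 0.05 and a 2-fold or 1.5-fold ratio. Log2 ratios used a prior count of 2, and intervals are exact 95% intervals of the read ratio. Each group is 1 library, so intervals cover counting error only. Reads carry no molecular identifiers, so amplified copies cannot be told from separate molecules, and the intervals make no allowance for such copies. The test was checked on simulated counts with no variation between cultures. That is what the test assumes, so the check says nothing about such variation.

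Alternatives were library totals, DESeq2 1.42.0 size factors, no filter, a mean of at least 10 CPM, a prior count of 0.5, log2(FPKM + 1), a GC correction (lowess fraction 0.3, statsmodels 0.14.6) and groups from the treatment field. The share of 31-base words in other genes came from GENCODE 29 transcripts. Members and lists were chosen with earlier results of these data known. The 1.5-fold threshold was also set with list medians of these data known. All members could be named. From each surrounding list the rule took genes called 2-fold in the same direction in all 3 libraries (at most 3 a direction), or otherwise the highest and lowest medians. Figures were drawn with matplotlib 3.10.9. A few genes of the surrounding lists are not reported here by name.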

Additional observations from a re-analysis of the deposited data

How the results depend on the processing

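Of 693 ratios of members to Bulk recomputed under the alternatives other than the treatment field, 673 kept their direction and their 1.5-fold call, 8 lost the call, 6 gained it and 6 changed sign, the last all within 0.2 of 0. FASN in eGFP became 0.0113 on the log2 scale with library totals. With log2(FPKM + 1), IDI1 became -0.0172 in Claret and -0.0252 in Violet, and SCAP -0.0220 in eGFP. With the GC correction INSIG2 became 0.0504 and SCAP -0.163 in eGFP. The number of members 2-fold higher became 3 in eGFP and 2 in Violet with library totals, 1 in Claret and 1 in eGFP with log2(FPKM + 1), and 1 in Claret with the GC correction. TM7SF2 and NPC1 lie at the 2-fold edge.

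The labels matter most. With groups from the treatment field, the library titled Violet becomes the control. Then in Claret 3 members were 2-fold higher and 1 lower, and 3 were 1.5-fold higher and 6 lower, the counts of Violet over Bulk with the sign turned, while in eGFP and in Violet 0 members were called at 2-fold or 1.5-fold in either direction. The median to the control in eGFP became 0.0398. Members 1.5-fold different numbered 9 in Claret over eGFP and 13 in Claret over Violet, and the medians became -0.145 in Claret over Violet and -0.0808 in eGFP over Violet. With 1 library per group no library could be left out and the spread between cultures is unknown. No paired analysis was possible because each group holds 1 library.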

Other observations

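Fatty-acid oxidation, the breakdown side of lipid metabolism, was also read from 12 genes, all of them tested. At 1.5-fold, 4, 3 and 2 (33.3%, 25% and 16.7%) were higher than Bulk for Claret, eGFP and Violet, and none was lower in these comparisons. Over all genes, 19.7%, 20.4% and 20.3% were higher and 16.5%, 17.7% and 16.8% lower. PPARA (chr22:46150521-46243756), a nuclear receptor that turns on fatty-acid oxidation, was the highest by its middle value. It had 39.6 CPM in Bulk against 73.8 (Claret), 88.6 (eGFP) and 87.2 (Violet), with log2 ratios of 0.90 (0.76 to 1.04), 1.16 (1.02 to 1.30) and 1.14 (1.00 to 1.28). ACADM, the medium-chain acyl-CoA dehydrogenase, was the lowest, with 100.5 CPM in Bulk against 72.9 (Claret), 71.8 (eGFP) and 77.2 (Violet). The medians of the 12 were 0.34, 0.39 and 0.32. For Claret, eGFP and Violet, 7, 7 and 8 intervals lay above 0, and 4, 4 and 3 spanned it. In each library 1 lay below 0. The list mixes enzymes with regulators such as PPARA. The 7 members of fatty-acid synthesis had medians of -0.28, -0.25 and -0.24 in the same libraries, and the 20 further genes of fatty-acid and glycerolipid synthesis had 0.09, 0.09 and 0.04. No test of the difference between these lists was made.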
